A study of Mus musculus with 4 samples.

Results

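This report concerns the T cells that were captured in the injured mouse pancreas: 667 of the 21140 cells in the authors' merged table. They were selected on 2 criteria. A cell had to be absent from the authors' table of EYFP-positive cells, and it had to hold at least 1 UMI (unique molecular identifier, 1 counted mRNA molecule) of 2 or more of the T cell receptor genes Cd3e, Cd3d, Cd3g, Trac and Trbc2 with 0 UMIs of the B cell genes Cd79a and Ms4a1. The study used Ptf1aCre-ERTM;ROSAYFP/+ mice backcrossed into CD-1, in which tamoxifen given before injury marks acinar cells with the fluorescent protein EYFP through the acinar-restricted Ptf1a promoter. Pancreatitis was induced from 10 weeks of age with repeated injections of caerulein, a peptide that overstimulates acinar cells, for 2 weeks (2 mice) or 4 weeks (2 mice), and no mouse analysed here was uninjured. Live EYFP-positive cells were sorted and their mRNA was read with 10x Genomics 3' chemistry (v3.1), 1 library per mouse. T cells do not express Ptf1a, so they reached the libraries through a gate set for another lineage, and their numbers are shares of what that sort let through, not of the tissue.

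T cells recognise antigens through a receptor made of variable chains (alpha and beta, or gamma and delta) held in a complex with the invariant CD3 chains, which pass the signal to kinases such as Lck. Cells with the coreceptor CD8 recognise MHC class I and can become killers, cells with CD4 recognise MHC class II and help other cells through cytokines, and the Foxp3-expressing branch restrains immune responses. In pancreatitis, T cells lie among macrophages, B cells and activated fibroblasts around acini that have lost their secretory state.

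Of the members, 45 held 2 of the 5 receptor genes, 52 held 3, 161 held 4 and 409 held all 5. These genes chose the cells, so their levels are a description: a UMI was found for Trbc2 (T cell receptor beta constant region) in 94.5% of members, Cd3g in 94.3%, Cd3d in 91.0%, Trac (alpha constant region) in 82.5% and Cd3e in 77.8%. Just inside the threshold, 33.3% of the 45 cells with 2 genes had a UMI of Lck, at a median of 2739 UMIs per cell. Just outside it, 4.18% of the 359 cells with 1 gene did, at a median of 4600 UMIs. In the 409 cells with all 5 genes the share was 84.4%. A further 8 cells outside the EYFP-positive table held 2 or more receptor genes together with a UMI of Cd79a or Ms4a1 and were left out.

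Genes that played no role in the selection went with the label. Lck was found in 75.4% of the members, in 8.92% of the 639 B cells of the same libraries and in 0.204% of the 1474 macrophages. The 3 classes had median depths of 3643, 3403 and 5960.5 UMIs per cell. The B cells and macrophages were chosen to hold no UMI of the receptor genes. Low shares of other T cell genes in them are therefore partly built in. Skap1, an adaptor of T cell receptor signalling, was found in 69.3% of T cells, 2.19% of B cells and 0.407% of macrophages, and the adaptor Lat in 61.8%, 0.626% and 0.543%. Bcl11b, a transcription factor of T cell commitment, was found in 55.5% of T cells against 0.313% of B cells, and Sh2d1a, which encodes the adaptor SAP, in 33.4% of T cells and in 0 of the B cells and macrophages. Ptprcap and Cd2 were not restricted in this way: Ptprcap was found in 78.3% of T cells and 77.2% of B cells. The 21 members with a UMI of Trdc described below and 13 members with a UMI of Ncr1, a receptor of natural killer cells, were counted with the others because the selection cannot part them.

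**Figure D1:**
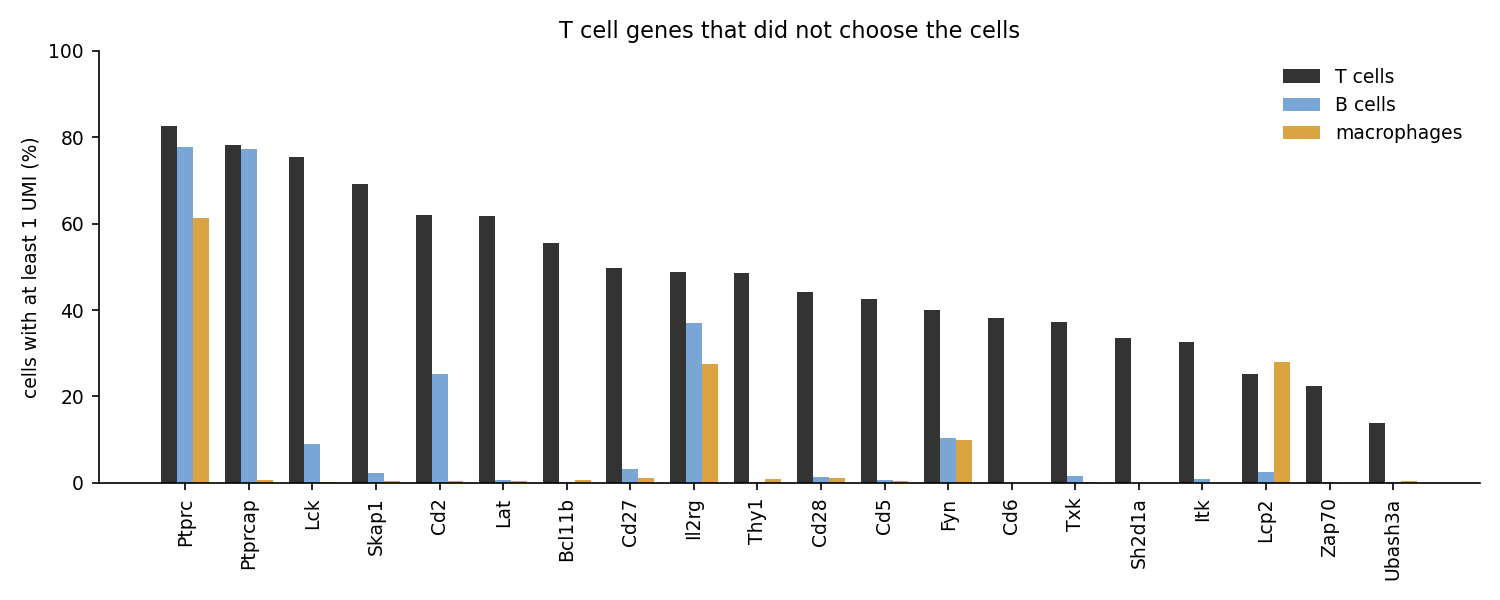
Share of cells with at least 1 UMI (%) of each of 20 T cell signalling and surface genes that did not choose the cells, in T cells, B cells and macrophages pooled over the 4 mice. Lck, Skap1 and Lat stand far higher in T cells than in the other classes, whereas Ptprcap, Ptprc and Il2rg were also found in B cells.

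The members held 2730899 UMIs in all. Per mouse there were 121 and 157 T cells at 2 weeks and 234 and 155 at 4 weeks, with medians of 4042, 4076, 3525.5 and 3109 UMIs per cell in that order of mice. The libraries shared 6 to 19 cell barcodes per pair, and no barcode was a T cell in both libraries of a pair. RNA of other cells was present throughout. The summed level of 20 acinar genes in T cells was 44254, 13042, 40488 and 139685 CPM (UMI counts scaled to a common total per mouse), and in B cells 43551, 33045, 47387 and 222037 CPM, in both classes highest in 4-week mouse 2. The chymotrypsinogen gene Ctrb1 had the highest mean level in the members apart from ribosomal and mitochondrial genes, at 15150, 5662, 14913 and 49837 CPM. A UMI of EYFP was found in 48 T cells (7.20%), of which 35 held exactly 1, against 8.14% of B cells and 10.7% of macrophages. In the 2-week mice the share in T cells was 4.13% and 2.55%, below that of B cells (7.58% and 7.83%). In the 4-week mice it was 8.12% and 12.9%, above that of B cells (5.76% and 12.0%), and in 4-week mouse 1 also above the 6.36% of macrophages. Of the members, 271 held at least 2 genes of another lineage, 260 of them through the mucin and ductal genes, and 33 held at least 2 fibroblast or macrophage genes. Erythroid genes were at 0 in every mouse, and neutrophil and mast cell genes were at or below 2.17 CPM.

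T cells made up 6.99% and 9.36% of the cells without a deposited type at 2 weeks and 11.2% and 6.80% at 4 weeks. The highest and the lowest value both came from 4-week mice, so the times overlapped. The means were 8.17% ± 1.67 and 9.0% ± 3.12 (SD, n = 2 mice each), a difference of 0.83 percentage points (exact permutation test, two-sided, p = 1). This exact test of 2 mice against 2 cannot go below p = 0.33, here or for the subsets. The sign of the difference depended on single mice: it was -0.36 without 2-week mouse 1 and -1.38 without 4-week mouse 1.

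By the coreceptor transcripts, 177 members (26.5%) were Cd4 cells with a UMI of Cd4 and none of Cd8a or Cd8b1, 161 (24.1%) were Cd8 cells with the reverse pattern, 324 (48.6%) had neither and 5 had both. A cell without a UMI may still carry the coreceptor, and the cells with neither were shallower (median 3164 UMIs, against 3800 in Cd4 and 4285 in Cd8 cells). Cd4 mRNA was also found in 5.90% of macrophages, while Cd8a and Cd8b1 were found in 0 of the B cells and 0.0678% of macrophages. Cd4 cells were 26.4% and 30.6% of T cells at 2 weeks and 27.4% and 21.3% at 4 weeks. Cd8 cells were 24.8% and 26.1% at 2 weeks and 26.5% and 18.1% at 4 weeks. In both subsets 4-week mouse 2 was lowest. The differences of the means were -4.19 and -3.17 percentage points (exact permutation tests, two-sided, p = 0.667 and 1, adjusted over the 5 share tests to 1 each). The difference for Cd8 cells was 1.04 without 4-week mouse 2 and -7.39 without 4-week mouse 1. For Cd4 cells it ranged from -1.16 without 4-week mouse 2 to -7.22 without 4-week mouse 1 (-2.13 without 2-week mouse 2). It was -0.87 without cells of mixed lineage. Thinned to 1000 UMIs per cell, Cd4 shares were 10.7% and 11.5% against 9.38% and 8.74%, without overlap (exact permutation test, p = 0.33, the smallest possible).

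**Figure D2:**
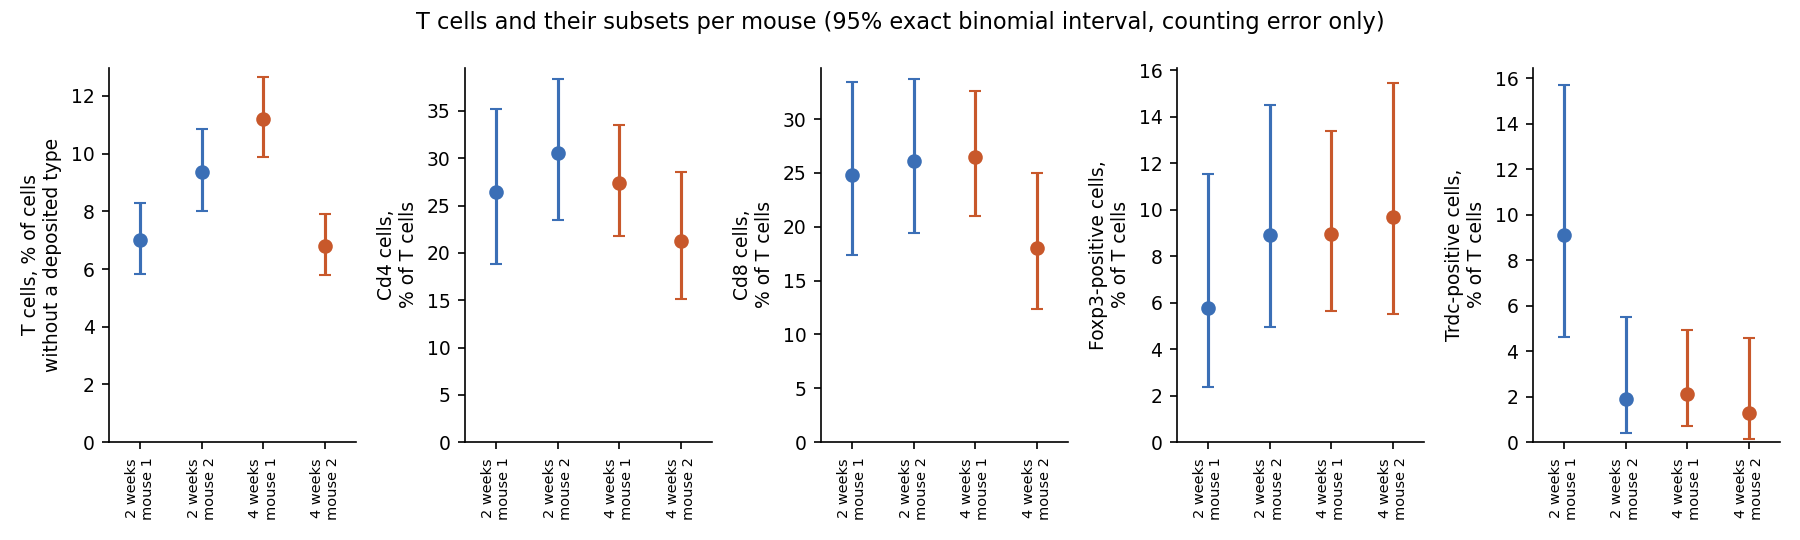
T cells as a share of cells without a deposited type, and Cd4, Cd8, Foxp3-positive and Trdc-positive cells as shares of T cells (%), 1 point per mouse with its 95% exact binomial (Clopper-Pearson) interval, which covers counting error only. The times overlap or, for Foxp3-positive cells, all but meet (8.92% against 8.97%), and 2-week mouse 1 stands apart in Trdc-positive cells at 9.09%.

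The comparison of Cd8 with Cd4 cells within each mouse was the strongest tested contrast among the T cells. Counts were summed per mouse and subset, and the mouse was kept as a block. Of 2066 genes tested, 160 passed (edgeR quasi-likelihood test, Benjamini-Hochberg adjusted p under 0.05): 102 were higher in Cd8 cells (4.94% of the genes tested) and 58 in Cd4 cells (2.81%). Ribosomal protein genes made up 64 of the 102, so that without them 38 genes were higher in Cd8 cells and 58 in Cd4 cells. Killer-cell genes such as Nkg7 and Ctsw were higher in Cd8 cells, and the transcription factor gene Maf and the costimulatory receptor gene Cd28 in Cd4 cells. RNA of other lineages was uneven among the sums. The 11 dendritic cell genes, MHC class II genes among them and Flt3 at 0, summed to 5783, 124, 3113 and 194 CPM in the Cd4 cells of the 4 mice (2-week mice first) and to 58.4, 92.6, 58.5 and 103 CPM in their Cd8 cells. The 14 macrophage genes stood at 221, 857, 4849 and 129 CPM against 149, 437, 267 and 453 CPM, and the 7 fibroblast genes at 21.3, 2052, 1130 and 9.22 CPM against 0, 20.6, 7.32 and 20.6 CPM. In 4-week mouse 2 the macrophage and fibroblast sums were thus higher in Cd8 cells. The macrophage list includes Ly6c2, which memory Cd8 cells also express, so its sum in Cd8 cells is not macrophage RNA alone. Of that sum, Ly6c2 made up 77.8, 293, 117 and 237 CPM in Cd8 cells, against 35.6, 0, 0 and 0 CPM in Cd4 cells. The 12 natural killer cell genes, the granzyme gene Gzma among them, summed to 2509, 10.3, 51.2 and 10.3 CPM in Cd8 cells. In Cd4 cells they summed to 228, 8.24, 325 and 36.9 CPM. The 17 proliferation genes stood at 4299, 535, 699 and 689 CPM in Cd8 cells against 832, 1611, 661 and 839 CPM. In Cd8 cells both lists were thus far highest in 2-week mouse 1. Single cells held much of this RNA: among all T cells of a mouse, 1 cell held 784 of 848 dendritic cell UMIs in 2-week mouse 1. Likewise, 1 cell held 494 of 508 fibroblast UMIs in 2-week mouse 2, and 1 held 1254 of 1513 macrophage UMIs in 4-week mouse 1. Their part in the contrast was not tested beyond leaving cells out. The contrast gave 121 calls without cells of mixed lineage and 152 without cells with 2 fibroblast or macrophage genes. It gave 153 without cells with an EYFP UMI and 176 without cells above 10000 UMIs. The genes that marked mixed cells were not chosen for dendritic or natural killer cells. Without 2-week mouse 2 the count was 99.

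Of the 15 cytotoxic genes, 4 had enough counts to be tested. The filter kept genes with enough counts in either subset, and these 4 were kept largely through their Cd8 counts, so how many of a list were higher in 1 subset is no support for the list. Their values were as follows. Nkg7, which encodes a membrane protein of cytotoxic granules, stood at 629, 489, 582 and 988 CPM in the Cd8 cells of the 4 mice and at 7.11, 49.4, 22.2 and 101 CPM in their Cd4 cells. The groups did not overlap, and the log2 difference was 4.10 ± 0.30 (SE, edgeR adjusted p = 1.51e-05). Ctsw, the protease cathepsin W of killer cells, was at 201, 195, 263 and 267 CPM in Cd8 and at 7.11, 24.7, 11.1 and 64.6 CPM in Cd4 cells (log2 difference 3.45 ± 0.33, edgeR adjusted p = 9.70e-06). Klrd1, the CD94 receptor subunit, was between 103 and 123 CPM in Cd8 cells and between 7.11 and 14.8 CPM in Cd4 cells (3.30 ± 0.36, edgeR adjusted p = 1.51e-05). The chemokine gene Ccl5 was at 2088, 597, 2597 and 3374 CPM in Cd8 cells against 121, 12.4, 259 and 92.2 CPM in Cd4 cells. Its log2 difference was 4.26 ± 0.35 (edgeR adjusted p = 0.00216), and 2-week mouse 2 was lowest in both subsets. Granzyme and perforin genes had too few UMIs to be tested. Prf1 (perforin) was found in 17.4% of Cd8 and 7.91% of Cd4 cells, and Gzmb (granzyme B) in 2.48% and 1.13%.

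Among 17 lineage transcription factors, 4 were tested. Runx3, which directs the Cd8 lineage, was higher in Cd8 cells, at 240, 154, 201 and 113 CPM against 85.4, 49.4, 55.4 and 46.1 CPM in Cd4 cells (log2 difference 1.76 ± 0.23, edgeR adjusted p = 6.97e-05). Maf, which drives cytokine and regulatory programmes of Cd4 cells, was higher in Cd4 cells, at 391, 293, 166 and 221 CPM. In Cd8 cells only 2-week mouse 2 held any Maf UMIs, 3 in all (15.4 CPM), so the fitted log2 difference of -5.61 ± 0.46 (edgeR adjusted p = 1.29e-06) rests on a near-zero group. Maf was also found in 61.9% of macrophages. The call held without the cells of mixed lineage (-7.97) and without those with fibroblast or macrophage genes (-5.57). Zbtb7b (ThPOK), the factor of Cd4 commitment, fell below the count filter. It was found in 20.3% of Cd4 and 0.621% of Cd8 cells.

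Promoter sequence is shown for 2 of the genes on which this contrast turns, Runx3 and its counterpart on the cytotoxic side, Nkg7, because RUNX factors bind a short core motif. The motif searched was TGTGGT. Both strands were searched, and the motif does not overlap another one. Windows run from 250 bases before to 50 bases after the annotated start in RefSeq (GRCm38.p6), in which 22 of the 32 genes picked for this contrast have an entry. Capitals mark the motif on either strand. The Nkg7 window, chr7:43436888-43437187 on the + strand, holds 1 match, and the upstream Runx3 window, chr4:135120395-135120694 on the + strand, holds 2.

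Nkg7: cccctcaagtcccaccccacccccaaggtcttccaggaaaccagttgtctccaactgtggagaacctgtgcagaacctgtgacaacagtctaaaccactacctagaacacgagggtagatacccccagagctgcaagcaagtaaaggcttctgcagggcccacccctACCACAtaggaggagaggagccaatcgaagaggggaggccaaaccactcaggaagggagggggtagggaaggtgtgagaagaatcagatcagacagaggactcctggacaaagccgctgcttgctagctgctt
Runx3: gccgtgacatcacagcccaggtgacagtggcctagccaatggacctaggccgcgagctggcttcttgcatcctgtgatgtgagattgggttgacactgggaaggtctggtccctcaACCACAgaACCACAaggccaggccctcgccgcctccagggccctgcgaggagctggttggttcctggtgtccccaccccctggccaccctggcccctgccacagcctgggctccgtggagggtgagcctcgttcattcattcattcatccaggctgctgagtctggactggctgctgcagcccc

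The downstream Runx3 start, chr4:135152295-135152594, and the window of Tbc1d4, chr14:101609142-101609441 on the - strand, hold 0 matches. The motif occurs in 5506 of 32851 RefSeq windows of this length (16.8%). With ribosomal protein genes left out, it was in 7 of the 29 genes with a window that were higher in Cd8 cells (24.1%), in 7 of 47 that were higher in Cd4 cells (14.9%) and in 230 of 1592 tested (14.4%). A match is a description of the letters. No binding was measured.

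Of 10 genes of naive and central memory T cells, all were tested, and Dapl1 was among those higher in Cd8 cells. It stood at 772, 540, 468 and 453 CPM in Cd8 cells and at 56.9, 144, 151 and 240 CPM in Cd4 cells (log2 difference 2.05 ± 0.40, edgeR adjusted p = 0.0430). Its call was lost without the cells of mixed lineage (log2 difference 1.49, edgeR adjusted p = 0.300), without 2-week mouse 2 (2.04) and without 4-week mouse 1 (2.19). Il7r (interleukin-7 receptor), at a log2 difference of 0.02 ± 0.19, and Tcf7, at 0.00 ± 0.19, did not pass (edgeR adjusted p = 0.984 and 1). Ly6c2, a surface protein of memory Cd8 cells and of monocytes, was at 77.8, 293, 117 and 237 CPM in Cd8 cells. In Cd4 cells it was at 35.6 CPM in 2-week mouse 1 and at 0 in the other mice (4.74 ± 0.90, edgeR adjusted p = 0.0357). The call was lost without 2-week mouse 2 (3.73), 4-week mouse 1 (4.37) or 4-week mouse 2 (4.46). Ly6c2 was found in 3.91% of B cells and 1.90% of macrophages, against 7.65% of T cells.

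Cd4 cells were higher in 5 of 19 tested signalling and surface genes, against 2.81% of all genes tested. The count filter kept Lcp2, which is among the 5, largely through its Cd4 counts, so this number is no support for the list. Cd28, the main costimulatory receptor, was at 256, 301, 288 and 406 CPM in Cd4 cells and at 71.3, 103, 73.2 and 92.6 CPM in Cd8 cells, without overlap (log2 difference -1.72 ± 0.20, edgeR adjusted p = 2.29e-05). The other 4 were the adaptor gene Lcp2 (-1.14), the inhibitory receptor genes Cd5 (-0.95) and Cd6 (-0.84) and the kinase gene Fyn (-0.86). These 4 calls were each lost in edgeR without 2-week mouse 2 (-1.24, -0.93, -0.88 and -1.04 in that order). Those of Lcp2 (-1.02), Cd6 (-0.84) and Fyn (-0.72) were also lost without 4-week mouse 1, and those of Cd5 (-0.68), Cd6 (-0.69) and Fyn (-0.66) without 2-week mouse 1. Of the 14 activation genes 5 were tested and 3 passed, all higher in Cd4 cells (2.81% of all genes tested). The count filter kept Tnfrsf4, Cd44 and Hif1a largely through their Cd4 counts, so this number is no support for the list. Tnfrsf4 (OX40) was at 142, 70.0, 207 and 295 CPM in Cd4 cells and at 13.0, 41.2, 3.66 and 20.6 CPM in Cd8 cells (-2.99 ± 0.59, edgeR adjusted p = 0.0166), a call that was lost without 4-week mouse 2 (-2.78) and in cells with 3 or more receptor genes (-3.22). Cd44, the adhesion receptor of antigen-experienced cells, was at 99.6, 94.8, 51.7 and 73.8 CPM against 0, 10.3, 11.0 and 72.0 CPM. In 4-week mouse 2 the 2 subsets were nearly equal (-2.02 ± 0.56, edgeR adjusted p = 0.0463), and the call was lost without 2-week mouse 2 (-1.71), without 4-week mouse 1 (-1.99) and without cells with fibroblast or macrophage genes (-2.01). The costimulatory receptor gene Cd226 went the other way, at 130, 113, 102 and 113 CPM in Cd8 cells and at 14.2, 57.7, 36.9 and 36.9 CPM in Cd4 cells (1.67 ± 0.32, edgeR adjusted p = 0.00224). Hif1a (hypoxia-inducible factor) differed by -1.59 ± 0.30 (edgeR adjusted p = 0.00217).

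Outside these lists, Tbc1d4, a Rab GTPase-activating protein, was at 128, 202, 170 and 138 CPM in Cd4 cells and at 0, 10.3, 0 and 20.6 CPM in Cd8 cells (log2 difference -4.59 ± 0.49, edgeR adjusted p = 1.51e-05). Izumo1r (folate receptor 4, abundant on regulatory and anergic Cd4 cells) was at 270, 280, 203 and 369 CPM against 32.4, 123, 11.0 and 92.6 CPM (-2.09 ± 0.39, edgeR adjusted p = 0.0103). Its call was lost without 4-week mouse 2 (-2.13). Rgs1, a regulator of chemokine receptor signalling found on tissue-resident cells, was at 249, 470, 203 and 194 CPM in Cd4 cells and at 104, 56.6, 29.3 and 61.7 CPM in Cd8 cells (-2.13 ± 0.27, edgeR adjusted p = 8.39e-05). Of the 19 immediate early genes 7 were tested, and Dusp1 (-4.46), Junb (-1.03) and Jund (-0.68) were higher in Cd4 cells (2.81% of all genes tested). The count filter kept Dusp1 through its Cd4 counts, 29, 23, 18 and 16 UMIs against 0, 1, 0 and 2 in Cd8 cells. How many passed is therefore no support for the list. The call of Junb was lost without 2-week mouse 2 (-1.13) and without 4-week mouse 2 (-0.95). This group responds to stimulation and also to tissue dissociation. Dusp1 was also found in 14.9% of B cells and 43.8% of macrophages. On the Cd8 side, the ribosomal protein genes were higher by small amounts, in 64 of 81 tested (median log2 difference 0.35), against 4.94% of all genes tested. This group was named after its values were seen.

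**Figure D3:**
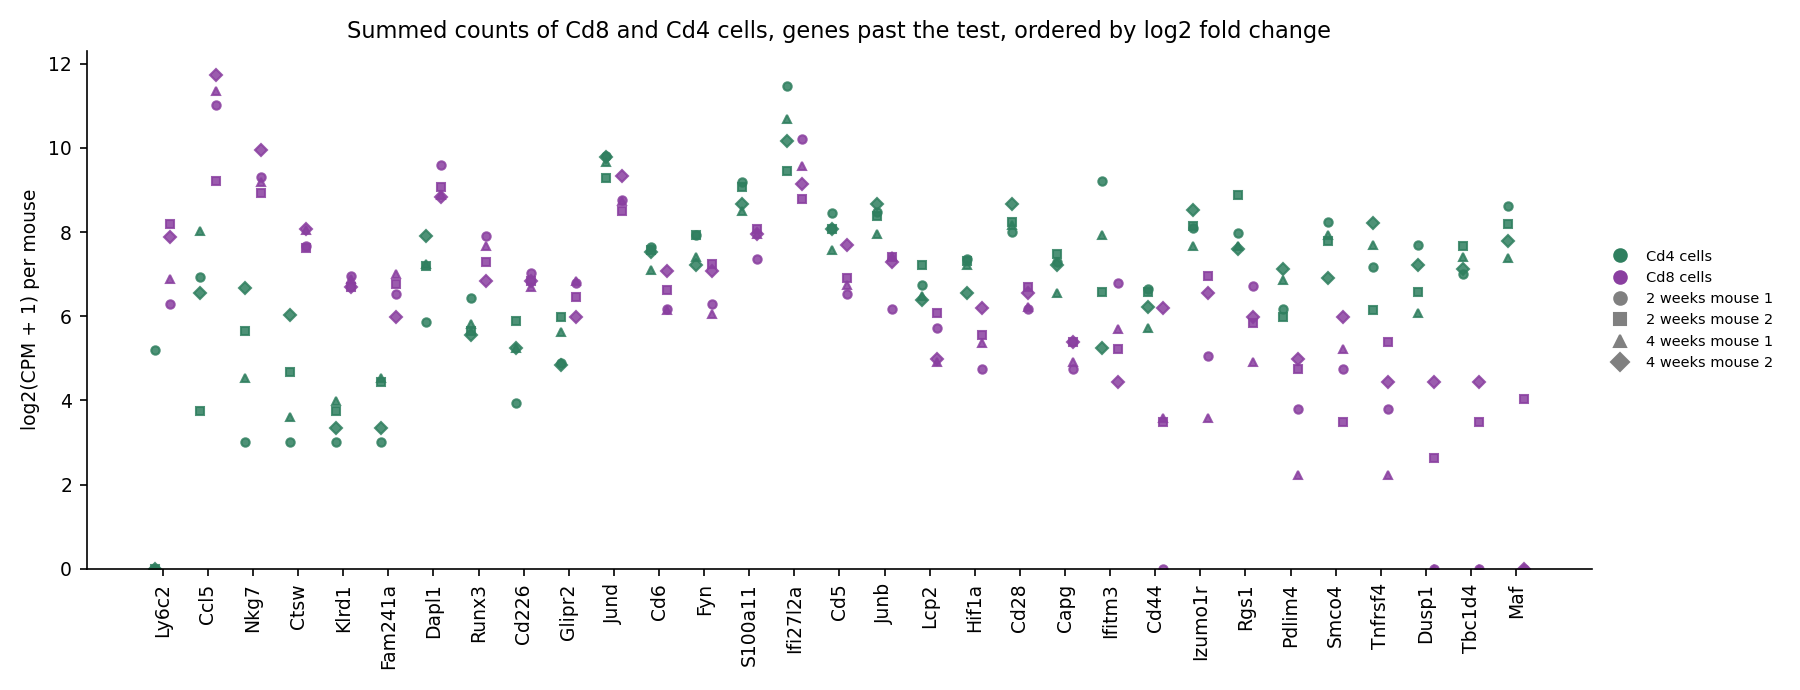
Level on the log2(CPM + 1) scale of 31 of the genes picked for the contrast, in Cd4 and Cd8 cells of each mouse (1 marker shape per mouse), ordered from higher in Cd8 to higher in Cd4 cells. Nkg7, Ctsw and Klrd1 do not overlap between the subsets, and neither do Cd28, Tbc1d4 and Maf.

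Foxp3, the lineage factor of regulatory T cells, was found in 57 members (8.55%, exact 95% interval 6.54 to 10.9%), against 0.313% of B cells and 0.0678% of macrophages. The shares were 5.79% and 8.92% at 2 weeks and 8.97% and 9.68% at 4 weeks. Between the highest 2-week and the lowest 4-week value there was almost no gap, and the difference of the means was 1.97 points (exact permutation test, two-sided, p = 0.33, the smallest possible, adjusted p = 1). The difference was 0.41 without 2-week mouse 1 and 3.54 without 2-week mouse 2. Thinned to 1000 UMIs per cell, the shares overlapped at 2.44% and 4.27% against 3.74% and 4.52%. They also overlapped without cells with an EYFP UMI, without cells with 2 fibroblast or macrophage genes and without cells above 10000 UMIs. They did not overlap in cells with 3 or more receptor genes (5.13% and 9.15% against 9.26% and 11.0%) or without the cells of mixed lineage (5.75% and 5.63% against 7.59% and 7.50%). By level, Foxp3 was at 24.5 and 46.8 CPM at 2 weeks and at 34.7 and 37.0 CPM at 4 weeks, so the times overlapped (edgeR log2 change 0.09 ± 0.36, adjusted p = 0.999). Only 11 of the 57 cells held a Cd4 UMI, and 45 held neither coreceptor.

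Other genes of the regulatory branch were found more often in Foxp3-positive members than in the 610 without, although they were shallower (median 2972 against 3691 UMIs). These are descriptions, since a planned test within Cd4 cells had 1, 2, 7 and 0 Foxp3-positive cells per mouse. The 610 also include all but 1 of the 161 Cd8 cells, in which Tnfrsf4 was lower than in Cd4 cells (log2 difference -2.99). The part of this in the shares below was not tested. Tnfrsf18 (GITR) was found in 78.9% of the Foxp3-positive and 28.2% of the other members, Ikzf2 (Helios) in 68.4% and 14.8%, Tnfrsf4 in 59.6% and 11.0%, and Ctla4, the inhibitory receptor of this branch, in 52.6% and 8.20%. Il2ra (CD25) was found in 33.3% and 2.46%. Per mouse, Tnfrsf4 was at 516, 1261, 889 and 1048 CPM in Foxp3-positive cells and at 69.4, 25.2, 44.5 and 114 CPM in the rest, and Ikzf2 at 221, 868, 495 and 863 CPM against 135, 92.8, 60.1 and 127 CPM. In every mouse both were higher in the Foxp3-positive cells, which rest on 7 to 21 cells per mouse. The naive-cell gene Lef1 went the other way, found in 24.6% against 57.0%.

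A UMI of Trdc, the constant region of the delta chain, was found in 21 members: 11 in 2-week mouse 1 and 3, 5 and 2 in the others. As shares these were 9.09%, 1.91%, 2.14% and 1.29%, and 2-week mouse 1 stood above the other 3 mice. The difference of the means was -3.79 percentage points (exact permutation test, two-sided, p = 0.667, adjusted p = 1), and it was -0.20 without that mouse. Thinned to 1000 UMIs per cell, the shares did not overlap (5.79% and 1.18% against 0.983% and 0.871%). Nor did they without cells of mixed lineage or without cells with an EYFP UMI. They overlapped in cells with 3 or more receptor genes, without cells with 2 fibroblast or macrophage genes and without cells above 10000 UMIs. Among these 21 cells, gamma chain genes were frequent (Tcrg-C4 in 47.6% and Tcrg-C2 in 42.9%, against 2.70% and 2.85% of all members), Trac was found in 38.1%, and Ncr1 in 28.6%. They were rich in killer-cell genes: Ctsw was found in 61.9%, Nkg7 in 57.1%, Klrd1 in 47.6%, and the chemokine gene Xcl1 in 42.9%. Cells with Ncr1 held neither Cd4 nor Cd8 UMIs.

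**Figure D4:**
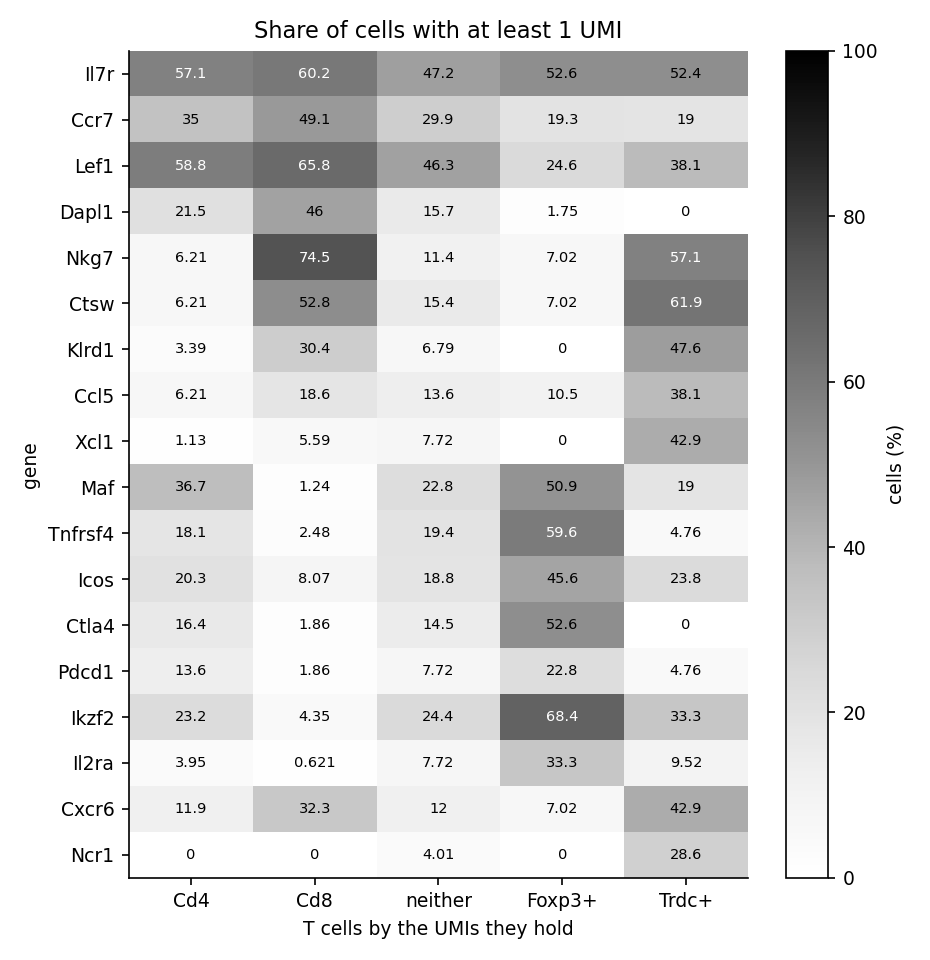
Share of cells with at least 1 UMI (%, printed in each field) of 18 genes in Cd4 cells (177), Cd8 cells (161), cells with neither coreceptor UMI (324), Foxp3-positive cells (57) and Trdc-positive cells (21), pooled over the 4 mice. The last 2 columns overlap the first 3. Nkg7 is highest in Cd8 cells (74.5%), Ikzf2 in Foxp3-positive cells (68.4%) and Xcl1 in Trdc-positive cells (42.9%).

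Both granzyme genes were found in few cells. Gzma (granzyme A) was found in 10 members with 478 UMIs, of which 1 cell held 286. Per mouse it had 453, 2, 3 and 20 UMIs, or 852, 2.92, 3.26 and 33.7 CPM. Gzmb was found in 8 members with 52, 0, 2 and 0 UMIs per mouse. At least 1 of the 15 cytotoxic genes had a UMI in 311 members (46.6%), and 2 or more in 172. The 15 genes together stood at 2984, 969, 1530 and 1347 CPM, with 1 cell of 2-week mouse 1 holding 520 of that mouse's 1586 UMIs. Markers of natural killer cells had the same highest and lowest mouse, with the 4-week mice in the other order. The 12 genes of that list summed to 1456, 218, 267 and 342 CPM, 1 cell of 2-week mouse 1 holding 312 of its 774 UMIs. Gzma is on both lists and held 453 of these 774 UMIs, so the 2 lists are not independent in their order of mice. The part of natural killer cell markers in the cytotoxic level was not tested. Ccl5 was spread more evenly, in 85 members at 1149, 446, 1034 and 838 CPM.

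Receptors and factors of resting, recirculating T cells were common. Il7r, which carries the survival signal of interleukin-7, was found in 354 members (53.1%), at 256 and 449 CPM at 2 weeks and at 472 and 249 CPM at 4 weeks. Tcf7 and Lef1, factors of the naive state, were found in 55.3% and 54.3%. Ccr7, the receptor for lymph node homing, was found in 36.1%. The B cells of the same libraries had Il7r in 0.313% and Tcf7 in 0.156%, but Ccr7 in 19.1%. The summed level of the 10 genes was 2393, 2979, 2899 and 1801 CPM, with 4-week mouse 2 lowest and the other 4-week mouse among the 2-week mice.

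Activation markers were found in fewer cells: the early antigen Cd69 in 29.7% of members (B cells 43.5%), Tnfrsf18 in 32.5%, Icos in 16.5%, Tnfrsf4 in 15.1% and Cd40lg (CD40 ligand) in 13.0%. Cd44 was found in 15.4%, against 11.3% of B cells and 36.0% of macrophages. Nr4a1, an early gene of receptor signalling, was found in 2.70%, below the 5.95% of B cells. Of the inhibitory receptors, Ctla4 was found in 12.0% and Pdcd1 (PD-1) in 8.10%, while Lag3 (3.30%), Havcr2 (TIM-3, 0.450%) and Tigit (0.600%) were rare. Lag3 and Havcr2 were more frequent in macrophages, at 4.27% and 19.0%. Tox, a factor of chronically stimulated T cells, was found in 21.7%.

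For homing, the integrin genes Itgb7 and Itga4 were found in 50.1% and 38.4% of members, and the chemokine receptor genes Cxcr6 in 16.8% and Cxcr3 in 13.2%. Cxcr6 was found in 0 of the B cells and macrophages. It was found in 32.3% of Cd8 and 11.9% of Cd4 cells, a difference in level that did not pass (edgeR log2 difference 1.04 ± 0.48, adjusted p = 0.363). Ccr9, the receptor for small-intestinal homing, was found in 26.1% of Cd8 and 2.26% of Cd4 cells and had too few counts for the test. The residency genes Itgae (CD103) and Itga1 (CD49a) were found in 3.45% and 1.95%, and Zfp683 (Hobit) in 0.300%.

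Most cytokine mRNAs were rarely captured. Of 31 genes for cytokines and secreted ligands, 6 were at 0 in all members: Il3, Il5, Il9, Il17a, Il17f and Il22. A count of 0 of 667 cells allows a share of up to 0.450% of cells with a UMI. Ifng (interferon-gamma) was found in 7 members (1.05%; B cells 0.313%), with 4, 0, 2 and 1 UMIs per mouse. Il4 was found in 8, Il21 in 4, Csf2 (GM-CSF) in 3, Il2 and Il10 in 2 each and Il13 in 1. Tnf was found in 22 members (3.30%), below the 10.2% of macrophages. Areg (amphiregulin), which regulatory T cells can supply to injured epithelium, was found in 4 members. The most often found were Ltb (lymphotoxin-beta), in 88.8% of members and 85.9% of B cells, Tgfb1 in 17.5% (macrophages 52.2%), Tnfsf8 (CD30 ligand) in 14.2%, Ccl5 in 12.7% (macrophages 10.0%) and Tnfsf11 (RANKL) in 6.30%. Xcl1, the ligand of cross-presenting dendritic cells, was found in 36 members at 169 and 14.6 CPM at 2 weeks and at 28.2 and 113 CPM at 4 weeks, with 1 cell holding 58 of its 193 UMIs.

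Of the lineage factors, Gata3, needed by all T cells and high in type 2 helpers, was found in 16.3%, Rora in 12.3% and Tbx21 (T-bet) in 2.40%. Among the cytokine receptor genes, Il27ra was found in 28.3%, Il2rb in 20.2%, Il6ra in 18.4% and Il18r1 in 13.3%, and B cells had 0 cells with Il2rb and 1 in 639 with Il18r1 (0.156%).

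Interferon-stimulated genes set 2-week mouse 1 apart. The 20 genes together stood at 5495 and 1438 CPM in the 2-week mice and at 2841 and 2543 CPM in the 4-week mice. The 2-week mice thus held both the highest and the lowest value. Isg15, a ubiquitin-like interferon product, was at 295 and 35.1 CPM at 2 weeks and at 148 and 74.1 CPM at 4 weeks, and Ifi27l2a at 2410 and 557 CPM and then 1166 and 1081 CPM. B cells of the same mice had the same highest and lowest mouse (3205, 1046, 1410 and 1168 CPM for the list). Of the 18 genes tested over time none passed in the main edgeR fit (all members and mice), and 2 had an unadjusted p under 0.05 there. Isg15 was called in 1 of 14 fits, which include those without 1 mouse.

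Between 4 and 2 weeks, 10 of 6061 genes passed the test in T cells (0.165%), all higher at 4 weeks, and none was a gene of T cell identity, subset, activation or cytokine function. edgeR gave 301 genes an unadjusted p under 0.05, and DESeq2 called 11 (9 higher and 2 lower at 4 weeks), of which 6 were shared. Without the count filter edgeR called 93, 72 higher and 21 lower. The p-values measure the spread between these 4 mice. Leaving out any 1 mouse raised the count: to 37 without 2-week mouse 1, 103 without 2-week mouse 2, 101 without 4-week mouse 1 and 87 without 4-week mouse 2, where the lone mouse of a time is assumed to vary like the other pair. The count was 0 without the 271 members that held 2 or more genes of another lineage (34, 86, 76 and 75 per mouse), 260 of them through mucin and ductal genes. That fit tested 3893 genes, of which 145 had an unadjusted p under 0.05 in edgeR. The count was 2 without the 33 members that held 2 or more fibroblast or macrophage genes. Tff2 is itself one of the genes by which cells of mixed lineage were found. It was found in 88.0% of T cells and 85.3% of B cells. The mark therefore cannot tell a doublet from a single cell with RNA of other cells.

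The 10 genes belong to no single list. Fn1 (fibronectin, an extracellular matrix protein) had 0 and 1 UMIs at 2 weeks and 73 and 51 at 4 weeks, or 0, 1.46, 79.3 and 85.8 CPM (edgeR log2 change 6.47 ± 0.56, adjusted p = 0.000606). The call was lost without cells with an EYFP UMI (5.90). Of its 125 UMIs, 119 lay in the 33 cells with fibroblast or macrophage genes (95.2%) and 53 in 1 cell. Clec3b (3.39), Plpp3 (3.27) and Pi16 (5.02), all known from fibroblasts, had 89.9%, 90.9% and 97.8% of their UMIs in those cells. Pi16 is named although its mean was under 20 CPM. It was not called without robust estimation of the spread or in cells with 3 or more receptor genes, where Fn1 was the only call. The call of Plpp3 was lost without 4-week mouse 1 (2.74) and in DESeq2 (3.33).

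Pga5 (pepsinogen, a stomach enzyme) was at 56.4 and 39.4 CPM at 2 weeks and at 256 and 231 CPM at 4 weeks (edgeR log2 change 2.47 ± 0.24, adjusted p = 0.000946). The call was lost in cells with 3 or more receptor genes (1.57, edgeR adjusted p = 0.0817) and without the cells of mixed lineage (1.53, edgeR adjusted p = 1). Pga5 was found in 28.0% of T cells, 26.1% of B cells and 34.3% of macrophages. Tff2, the spasmolytic peptide of metaplastic mucous cells, was at 500 and 571 CPM at 2 weeks and at 1455 and 2586 CPM at 4 weeks (2.04 ± 0.29, edgeR adjusted p = 0.0483). The call was lost under the same 2 settings (1.89 and 2.19) and without cells with an EYFP UMI (2.02). Tff2 was found in 88.0% of T cells, 85.3% of B cells and 87.0% of macrophages. The summed mucin and ductal list was at 1074 and 1856 CPM and then at 4941 and 5969 CPM in T cells, and 1 of its 11 tested genes (Tff2) passed. In B cells the same list was at 1104, 3498, 1757 and 5263 CPM. The part of these cells' RNA in the change was not tested.

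The remaining calls were Fabp5 (a fatty acid-binding protein, log2 change 1.97), Ttr (transthyretin, 2.00), Anxa4 (an annexin of epithelia, 2.40) and Marcks (a substrate of protein kinase C, 1.82). Between 35.1% and 65.4% of their UMIs lay in the 33 cells with fibroblast or macrophage genes. In macrophages Marcks was found in 85.9% and Fabp5 in 55.8% of cells, against 5.55% and 16.2% of T cells. Fabp5 changed sign without the members of mixed lineage (-1.10). All 4 calls were lost without cells with fibroblast or macrophage genes (0.23, 1.36, 1.85 and 1.34 in the order above) and without cells with an EYFP UMI (1.45, 1.85, 2.45 and 1.73). Those of Fabp5, Ttr and Marcks were lost in cells with 3 or more receptor genes (1.04, 1.55 and 1.09), and those of Fabp5, Ttr and Anxa4 without cells above 10000 UMIs (1.37, 1.58 and 1.66). The call of Ttr was also lost without the cells of mixed lineage (1.30), and DESeq2 did not call Anxa4 (2.42) or Marcks (1.85). Without robust estimation of the spread, edgeR lost Pga5 (adjusted p = 0.0568) and also Tff2, Clec3b, Plpp3, Fabp5, Ttr, Anxa4 and Marcks (adjusted p between 0.208 and 0.317). Pi16 was lost there too, since Fn1 was the only call left.

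**Figure D5:**
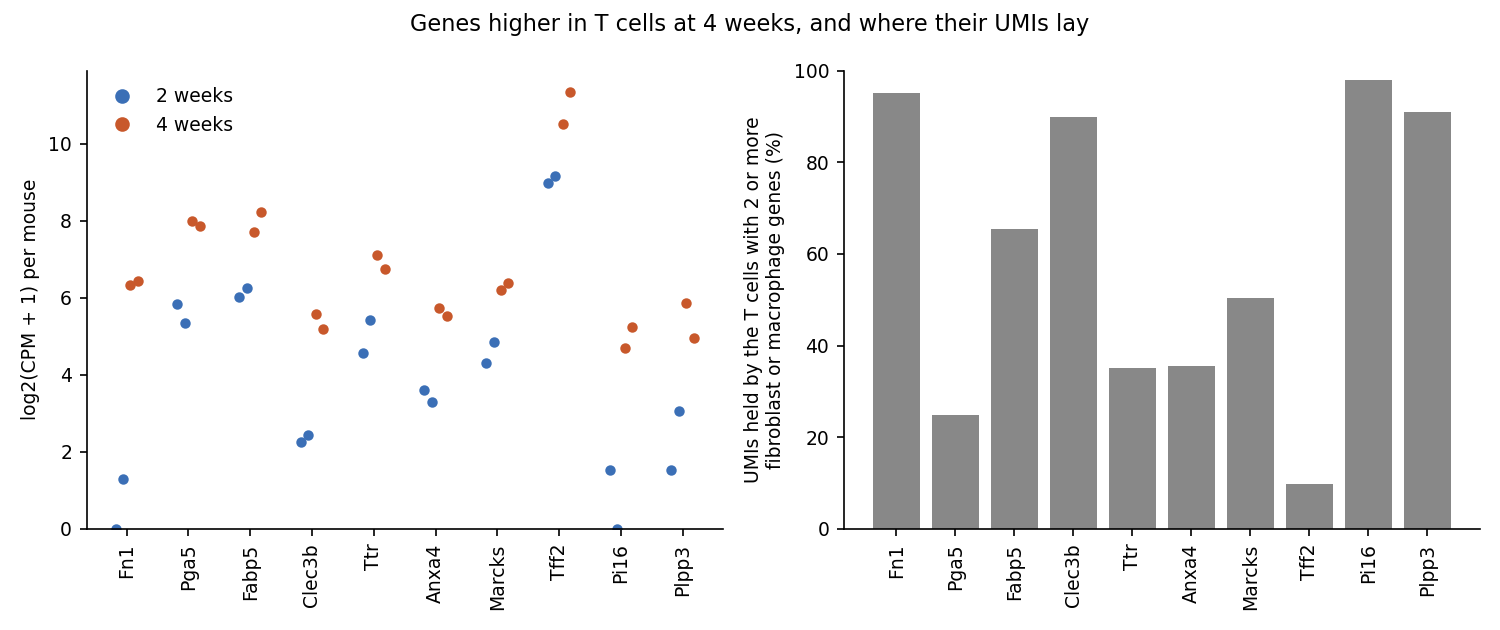
Left: level on the log2(CPM + 1) scale of the 10 genes called over time, 1 point per mouse. Right: share of each gene's UMIs (%) that lay in the 33 T cells with 2 or more fibroblast or macrophage genes. The genes were called on this same contrast, so that each separates the times only describes the choice. For Fn1, Clec3b, Pi16 and Plpp3 at least 89.9% of the UMIs lay in those few cells.

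The T cell lists gave no call over time in the main edgeR fit (all members and mice, with the count filter). Of the receptor complex genes that did not choose the cells, Cd247 (the zeta chain) changed by -0.13 ± 0.20 and Trbc1 by -0.25 ± 0.22 in log2, and neither passed (edgeR adjusted p = 0.992 and 0.983). Of the 20 signalling and surface genes, 2 had an unadjusted p under 0.05. Tnfrsf4 differed by 0.73 ± 0.25 (edgeR unadjusted p = 0.0129, adjusted p = 0.779). Ctla4 differed by 0.56 ± 0.28 (edgeR unadjusted p = 0.0689, adjusted p = 0.963) and Nkg7 by -0.47 ± 0.33 (edgeR unadjusted p = 0.206, adjusted p = 0.983). None of these passed, which does not show that the times were equal.

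Proliferation came closest. All 10 tested genes of the list had a negative sign, with a median log2 change of -1.37. In edgeR 4 had an unadjusted p under 0.05, against 301 of all 6061 genes, and none passed in the main fit. The count filter kept Mki67 through its 2-week counts. How many genes shared a sign or fell under this p is therefore no support for the list. Some alternatives, which include fits without 1 mouse, did call genes of the list: Mki67 in 4 of 13, Top2a in 3 of 12 and Hmgb2 in 3 of 14. The list rested on few cells: 1 cell held 578 of the 989 UMIs of 2-week mouse 1 and 1 held 158 of the 639 of 2-week mouse 2, while at 4 weeks no cell held over 15. The medians per cell were 3, 2, 2 and 2 UMIs. Mki67, the marker of cycling cells, had 37 and 20 UMIs at 2 weeks and 5 and 2 at 4 weeks, or 69.6, 29.2, 5.43 and 3.37 CPM (-3.23 ± 0.59, edgeR adjusted p = 0.0911). It was found in 4, 11, 5 and 2 cells, and 1 cell held 34 of its 64 UMIs. As shares of T cells these were 3.31% and 7.01% at 2 weeks and 2.14% and 1.29% at 4 weeks, without overlap.

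The change over time in T cells was set against that in B cells of the same mice by an interaction test with the mouse as a block. Of 7288 genes 19 differed (0.261%), 18 of them with a positive difference of the 2 log2 changes (T minus B), which a rise in T cells or a fall in B cells can give. Among them were the matrix protein genes Col3a1 (log2 difference 5.85 ± 0.52), Fbn1 (6.11 ± 0.69) and Mfap5 (6.99 ± 0.90). Col3a1 was at 7.53, 155, 352 and 64.0 CPM in T cells and at 15.8, 155, 5.43 and 0 CPM in B cells, and its change in T cells alone did not pass (edgeR log2 change 1.44 ± 1.79, adjusted p = 0.985). Lum, another matrix gene, was at 1.88, 67.2, 70.6 and 18.5 CPM in T cells (edgeR log2 change 0.47 ± 1.58, adjusted p = 0.999) and at 0, 22.2, 0 and 0 CPM in B cells. For both, B cells were highest in 2-week mouse 2. The fibroblast list as a whole was at 22.6, 742, 1011 and 252 CPM in T cells and at 26.3, 350, 21.0 and 7.98 CPM in B cells, and 10 members held 2 or more of the fibroblast genes used to mark mixed cells. Col3a1, Col1a2 and Lum are among those marking genes, so leaving such cells out removes their UMIs by construction. No gene differed in edgeR without the 33 cells that held fibroblast or macrophage genes (266 at an unadjusted p under 0.05) or without the 21 members above 10000 UMIs (315), and DESeq2 called 3 over all members. The count was 9 without the 271 cells of mixed lineage, 2 with a positive and 7 with a negative difference, and 0 of the 19 genes were among them. It was 9 without 2-week mouse 2, with 1 of the 19 among them, 44 without 4-week mouse 1 and 108 without 4-week mouse 2.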

How the data were processed

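Raw UMI counts per gene and cell, deposited by the authors without normalization, were read from their merged table (32288 features) and assigned to mice by the sample name in each cell name. Reads had been processed with Cell Ranger 4.0.0 and Seurat 3.2.3 against mm10, per the submitters' processing notes; the authors' cell filter is not given in the sources used here. The members, gene lists and comparators were chosen with earlier results of these data known. B cells had at least 2 of 4 B cell genes and no UMI of the receptor genes. Macrophages had at least 3 macrophage genes and no UMI of the receptor genes or of those 4 B cell genes. Counts were summed per mouse, and CPM is a gene's count divided by all counts of those cells. Tests used edgeR 4.0.16 (quasi-likelihood, robust, TMM, filterByExpr) in R 4.3.3, with Benjamini-Hochberg adjustment over all genes tested at 0.05, and were tested on simulated counts. DESeq2 1.42.0, the gene filter, stricter cell rules and leaving out each mouse were alternatives. Leaving out cells with 2 fibroblast or macrophage genes, with an EYFP UMI or above 10000 UMIs was added after seeing the data. No doublet caller was run; cells with 2 genes of another lineage (macrophage: C1qa, C1qb, C1qc, Csf1r, Lyz2; fibroblast: Col1a1, Col1a2, Col3a1, Dcn, Lum; endothelial: Pecam1, Cdh5, Kdr, Plvap; mucin and ductal: Epcam, Krt8, Krt18, Krt19, Tff2) were left out as an alternative. Genes were named from 34 lists, and otherwise by size of change, at most 10 in each direction, among called genes averaging 20 CPM or more whose groups did not overlap or whose sign was shared by every mouse. The 3 list genes Trgc1, Trgc2 and Trgc4 have no row in the table. Intervals and floors cover counting error only. Some genes are not reported here. Cell shares are pooled over mice unless given per mouse.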

Additional observations from a re-analysis of the deposited data

Results flagged for a closer look

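The change over time in T cells minus that in B cells of the same mice differed by the interaction test, with a positive sign, for 9 of the genes named: Mfap5 (log2 difference 6.99), Fn1 (6.86), Lum (6.66), Fbn1 (6.11), Col3a1 (5.85), Col1a2 (4.72), Sparc (4.71), C3 (3.37) and Marcks (2.76). Gm2663 differed in the other direction (-1.91). It was at 280, 117, 406 and 1406 CPM in T cells and at 247, 87.0, 1033 and 3184 CPM in B cells. The 33 T cells with 2 or more fibroblast or macrophage genes held between 92.1% and 99.0% of the T cell UMIs of these 9 genes apart from Marcks (50.3%), which was found in 85.9% of macrophages. The part of such cells in the difference was not tested beyond leaving them out.

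The authors' table of EYFP-positive cells, which the comparisons do not use, also held cells with T cell receptor transcripts: 136 of 13362 had 2 or more of the 5 genes and no UMI of Cd79a or Ms4a1. Of these, 67 carried the deposited name Acinar, 34 Acinar.Prolif and 16 MucinDuctal. Their median was 39024 UMIs per cell, against 3643 in the members. Counted without regard to Cd79a and Ms4a1, 106 cells held exactly 2 of the genes, with Lck in 1.89%, and 16 held all 5, with Lck in 87.5%.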

How the results depend on the processing

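Without a filter on low counts the calls were 93 over time, 315 for Cd8 against Cd4 and 67 for the difference between T and B cells. DESeq2 gave 62 for Cd8 against Cd4, where it gave 1121 of the 2066 genes no adjusted p, and 3 for the difference between T and B cells. Over time there was 1 call without robust fitting, 1 with 3 or more receptor genes, 0 without cells of mixed type, 2 without cells with 2 fibroblast or macrophage genes, 1 without cells with an EYFP UMI and 2 without cells above 10000 UMIs. In the same order from the rule of 3 genes on, the difference between T and B cells gave 10, 9, 0, 12 and 0 calls. Leaving out each mouse in turn gave 37 to 103 calls over time, 99 to 183 for Cd8 against Cd4 and 9 to 108 for the difference between T and B cells. It gave differences of -1.38 to 3.03 percentage points for the T cell share and -7.39 to 1.04 for the Cd8 share. Changed signs among named genes were Fabp5 over time (-1.10 without cells of mixed type) and Gm2663 between T and B cells (0.53 without cells of mixed type, 0.33 without cells above 10000 UMIs). The cause was not tested where fewer samples or genes do not give it by construction. Over all alternatives that gave an adjusted p the 20 genes named by rule for Cd8 against Cd4 kept direction and call in 212 cases and lost the call in 12, against 65 and 33 for the 9 over time and 69 and 36 for the 10 between T and B cells. The planned test of Foxp3-positive against Foxp3-negative Cd4 cells was not run, since no mouse had 10 such cells. No paired analysis was possible between the times because the labels give no shared replicate numbers. The depth with its median of 3643 UMIs per cell limits what can be said of cytokine and coreceptor transcripts.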
